A study of Mus musculus with 2 samples.

Results

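Hepcidin, its regulators and the genes of iron uptake, transport, export and storage were followed in the livers of mice that lack Pgrmc1, a heme-binding membrane protein of the endoplasmic reticulum. The 10 genes were chosen by symbol as Hamp, Hamp2, Bmp6, Hfe, Tfr2, Trf, Tfrc, Slc40a1, Fth1 and Ftl1, and all 10 were found among the 24054 genes of the deposited expression table. Liver RNA came from male mice aged 8 to 12 weeks of the strain labelled C57BL/6. The Pgrmc1 KO group (genotype Pgrmc1 -/Y) lacked exons 1 and 2 of this X-linked gene, which had been deleted in C57BL/6N-derived mice by crossing to Sox2-Cre, a Cre that acts in the early embryo. The deletion is therefore present in the whole body and not in the liver alone. The WT group carried no deletion, and whether these mice were littermates or carried Sox2-Cre is not given in the sources used here. Equal masses of RNA (2.5 μg per mouse) from 5 mice of a genotype were pooled, and each pool gave 1 library, so no difference described here has a replicate check or a test, and variation from mouse to mouse is unknown.

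Hepcidin is a small peptide hormone made by hepatocytes that binds the iron exporter ferroportin (Slc40a1) and sends it for degradation, which holds iron inside macrophages, gut cells and hepatocytes. Its transcription is driven by the ligand BMP6 from liver endothelial cells through SMAD factors, with HFE and transferrin receptor 2 reporting how much iron transferrin carries, and by interleukin-6 through STAT3 in inflammation. Inside cells, iron regulatory proteins bind hairpins in mRNA called iron-responsive elements. A hairpin before the coding sequence blocks translation when iron is low, as in ferritin mRNA, and hairpins after it protect the transferrin receptor mRNA from decay.

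The promoters of both hepcidin genes are shown because Hamp and its paralog Hamp2 lie on the same chromosome and differ in 1 of the elements through which hepcidin is regulated. Hamp (Entrez gene 84506) occupies chromosome 7, 30942368 to 30944029, and Hamp2 (Entrez gene 66438) occupies 30922372 to 30924181, both on the minus strand of GRCm38, the mm10 assembly. The 150 bases before each start site, from RefSeq on GRCm38.p6, are given from 5′ to 3′ on the minus strand, as chr7:30944030-30944179 for Hamp and chr7:30924182-30924331 for Hamp2. Capitals mark the BMP response element searched for as GGCGCC and the STAT site searched for as TTCNNNGAA, or the aligned bases in Hamp2.
Hamp: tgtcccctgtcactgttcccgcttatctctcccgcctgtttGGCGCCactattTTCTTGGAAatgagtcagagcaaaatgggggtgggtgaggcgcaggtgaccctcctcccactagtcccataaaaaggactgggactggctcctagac
Hamp2: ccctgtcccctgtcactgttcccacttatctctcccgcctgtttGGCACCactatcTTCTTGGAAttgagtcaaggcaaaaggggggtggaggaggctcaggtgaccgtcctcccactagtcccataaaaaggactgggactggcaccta

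Aligned over the whole windows of 250 bases before and 50 bases after the start, the 2 promoters were identical at 276 of 303 aligned columns (91.1%). The BMP response element began 109 bases before the start of Hamp. Its counterpart in Hamp2, 106 bases before the start, carries G4A, counted from 1 at the first base of the element, and no longer matches the letters searched for. The STAT site was identical in both genes, at 97 bases before the start of Hamp and 94 before that of Hamp2. Both motifs read the same on the 2 strands. Among 32851 promoter windows of this length, 11.9% hold GGCGCC, 8.3% hold TTCNNNGAA and 0.645% hold both, as Hamp does. Of the 8 genes followed here that have a promoter window, 2 hold GGCGCC (Hamp, and Tfrc at 89 bases before 1 of its starts) and 2 hold the STAT site (Hamp and Hamp2). A match of letters is a description of the sequence and not a site shown to be bound.

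Iron-responsive elements are shown because they divide these genes into those that iron regulatory proteins can act on after transcription and those they are not known to act on. Untranslated regions of GENCODE transcripts were searched, on the transcript strand, for a bulged C, 5 stem bases, the loop CAGTGN and 5 more stem bases that pair with the first 5. Watson-Crick and G-T pairs were both accepted. Such a hairpin was found in 160 of 21877 coding genes (0.731%) and in 4 of the 10 genes followed here. An element of another form is missed by this search, which found no site in Epas1 or Slc11a2. Each site is given from 5′ to 3′ with 6 further bases on each side, and capitals mark the bulged C and the loop.
Fth1, 5′ UTR, chr19:9982732-9982760, plus strand: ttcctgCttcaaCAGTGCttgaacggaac
Ftl1, 5′ UTR, chr7:45459779-45459807, minus strand: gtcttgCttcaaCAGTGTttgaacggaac
Slc40a1, 5′ UTR, chr1:45925465-45925493, minus strand: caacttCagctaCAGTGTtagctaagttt
Tfrc, 3′ UTR, chr16:32631219-32631247, plus strand: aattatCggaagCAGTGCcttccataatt
Tfrc, 3′ UTR, chr16:32631598-32631626, plus strand: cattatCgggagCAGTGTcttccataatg
Tfrc, 3′ UTR, chr16:32631663-32631691, plus strand: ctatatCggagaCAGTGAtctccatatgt
Tfrc, 3′ UTR, chr16:32631710-32631738, plus strand: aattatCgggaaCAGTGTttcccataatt

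The ferritin and ferroportin sites lie before the coding sequence and the 4 Tfrc sites after it. In these positions the hairpins are known to act on translation of ferritin and ferroportin and on the stability of the Tfrc mRNA, of which RNA sequencing can show only the latter.

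Levels are given in TPM, the share of a gene in the transcript pool after division by length, so that genes can be compared with each other. Estimated depth was 22086692 reads in the KO library and 29710419 in the WT library. The library labels were checked with the targeted gene, which stood at 0.68 TPM in KO against 949 in WT. The tissue label was checked with 8 hepatocyte markers, which summed to 81174 TPM in KO against 84239 in WT. Changes are differences on the log2 scale after 1 TPM was added to each level, which makes the change of a low gene look smaller than it is. Beside them stand 95% intervals of the log2 ratio of the authors' library means (estimated reads divided by a size factor), which cover counting error only. Over the 11623 genes whose mean of both libraries reached 1 TPM, the median change was -0.01, and the 5th and the 95th percentile were -0.27 and 0.27.

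Iron genes made up 1.66% of all TPM in the KO library and 1.70% in the WT library. The most abundant was Trf, which encodes transferrin, the plasma iron carrier that the liver secretes. It was followed in both libraries by the ferritin light chain Ftl1, the ferritin heavy chain Fth1 and Hamp, and these 4 were among the 150 most abundant genes of each library. In WT, Tfr2 (146 TPM) and Hamp2 (142 TPM) came next, and their counting intervals overlapped. In KO, Tfr2 (162 TPM) stood above Hamp2 (108 TPM) without overlap. Slc40a1, Hfe, Tfrc and Bmp6 completed the order in both libraries, and no other pair of neighbours had overlapping intervals. The lowest level was that of Bmp6 at 2.59 TPM in KO against 2.58 in WT.

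**Figure D1:**
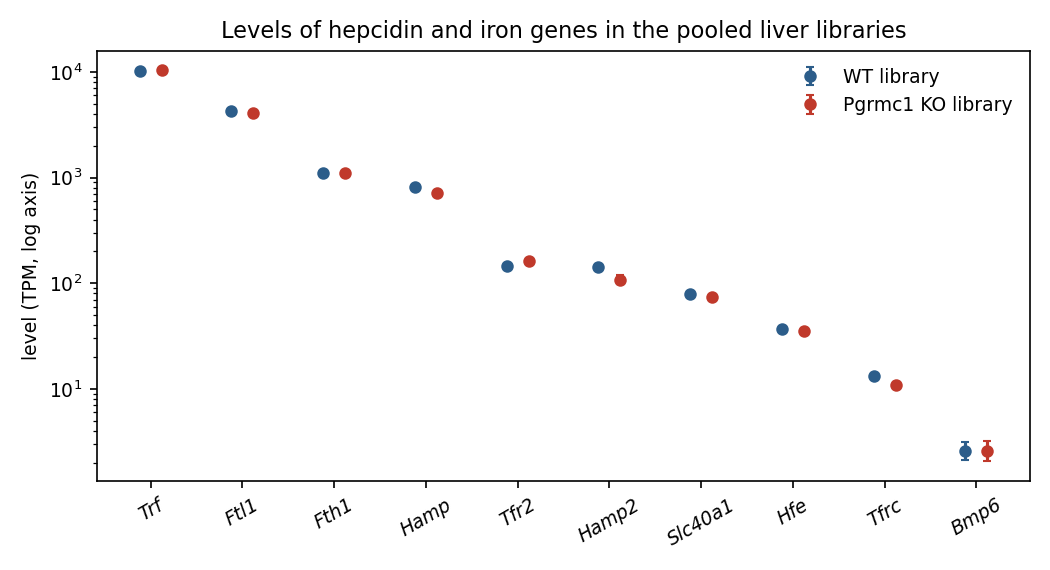
Levels of the 10 genes in TPM (log axis) in the WT library (blue) and the Pgrmc1 KO library (red), 1 pooled library each, ordered by the WT level. Bars are 95% intervals that cover counting error only, and most are smaller than the points. Both libraries span from Trf at the top to Bmp6 near 2.6 TPM, and the points of Hamp2 are among the most separated.

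Both hepcidin genes were lower in the KO library. Hamp, which encodes the iron-regulating hormone, stood at 708 TPM in KO (rank 144 of all genes) against 819 in WT (rank 125), a change of -0.21. Its interval of the ratio of means ran from -0.24 to -0.08, on 2220 and 3343 estimated reads, so counting error alone does not cover the difference. Computed from the authors' means, the change was -0.16. Hamp2, a mouse paralog without a known role in iron control, stood at 108 TPM in KO against 142 in WT, a change of -0.39 (interval -0.53 to -0.17, on 404 and 696 estimated reads). From the authors' means, the change of Hamp2 was -0.35. Of the 11623 genes, 1.93% had a change as low as that of Hamp2 or lower, and 8.80% as low as that of Hamp or lower. The level of Hamp was 6.54 times that of Hamp2 in KO and 5.75 times in WT. The summed TPM of both was 816 in KO and 962 in WT. Their transcripts share no identical stretch of 100 bases, the read length, with each other or with another GENCODE gene. Stretches that differ by a few bases were not counted, so exchange of reads between similar sequences was not tested. In RNA from whole liver, fewer cells of a type and less RNA per cell cannot be told apart.

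The ligand and the sensors upstream of hepcidin went in different directions or stayed close to each other. Bmp6, the endothelial ligand (Entrez gene 12161, chromosome 13, 38345716 to 38500314), was at 2.59 TPM in KO against 2.58 in WT. Its change was 0.00 on 81 and 108 estimated reads, and its interval of -0.42 to 0.45 means that differences within it were not detectable at this depth. Hfe, the MHC class I-like protein mutated in hereditary hemochromatosis (Entrez gene 15216, chromosome 13, 23702034 to 23710854), was at 35.4 TPM in KO against 36.9 in WT, with an interval of -0.18 to 0.09 that holds 0. Tfr2, the hepatocyte receptor that senses iron-loaded transferrin (Entrez gene 50765, chromosome 5, 137569822 to 137588081), was at 162 TPM in KO against 146 in WT. Its change of 0.14 was the highest of the 10 genes, its interval ran from 0.11 to 0.20, and 14.2% of all genes had a change as high or higher. So Hamp and Hamp2 were lower in the library in which Tfr2 was slightly higher.

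Among the uptake, carrier and export genes of the 10, Tfrc had the change farthest from 0. Tfrc, the receptor that brings iron-loaded transferrin into cells (Entrez gene 22042, chromosome 16, 32608896 to 32632794), was at 10.8 TPM in KO against 13.2 in WT. Its change was -0.26 (interval -0.41 to -0.14, on 724 and 1183 estimated reads), and 5.54% of all genes had a change as low or lower. The ratio of Tfr2 to Tfrc, the 2 transferrin receptors, was 14.9 in KO and 11.1 in WT. Slc40a1, ferroportin (Entrez gene 53945, chromosome 1, 45908070 to 45926532), was at 74.7 TPM in KO against 79.3 in WT, a change of -0.08 whose interval of -0.14 to -0.01 lies just below 0. Trf (Entrez gene 22041, chromosome 9, 103208876 to 103230286) was at 10327 TPM in KO against 10219 in WT, a change of 0.0152 on 314779 and 416685 estimated reads. This lies just below its interval of 0.0223 to 0.0357, which is set on the authors' means, so the choice of table moved this small value by more than counting error. Part of the Trf sequence (53.2% of its stretches of 100 bases) is also annotated under the GENCODE gene model Gm20425, which is not among the genes with a TPM value.

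Ferritin stores iron in a shell built from heavy and light chains, of which the heavy chain oxidises iron. Fth1 (Entrez gene 14319, chromosome 19, 9980600 to 9985111) was at 1107 TPM in KO against 1097 in WT, a change of 0.01. Its interval of 0.0018 to 0.0704 lies just above 0. Ftl1 (Entrez gene 14325, chromosome 7, 45457944 to 45459886) was at 4115 TPM in KO against 4305 in WT, a change of -0.0650 that also lies just outside its interval on the authors' means, -0.0605 to -0.0260. Light chain transcripts outnumbered heavy chain transcripts 3.72 to 1 in KO and 3.93 to 1 in WT. Of the stretches of 100 bases in Ftl1, 34.4% also occur in GENCODE copies such as Ftl1-ps1 and Ftl2-ps. None of these copies is among the genes with a TPM value, and how reads from them were counted is not known. Fth1 shared 0.21% of its stretches with another gene. Both ferritin levels thus differed by less than 5% between the libraries.

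**Figure D2:**
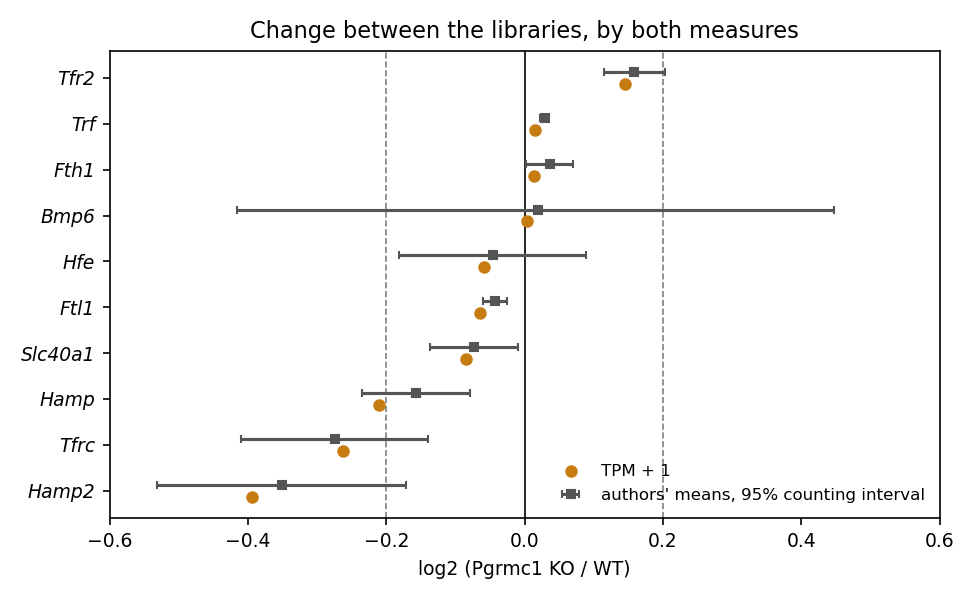
Change of each gene between the libraries as log2(KO/WT), from TPM + 1 (orange points) and from the authors' library means (grey squares) with 95% intervals that cover counting error only. Dashed lines stand at -0.2 and 0.2. Hamp2, Tfrc and Hamp lie lowest, Tfr2 highest, and the intervals of Bmp6 and Hfe hold 0.

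With fold limits of at least 1.4 upward and at most 0.6 downward, the limits of the study without its criterion on the probability of a difference, 0 of the 10 genes passed upward and 0 downward. Of all 11623 genes, 1.09% passed upward and 0.301% downward, so that a count of 0 among 10 genes is near this background. With a smaller limit of 0.2 on the log2 scale, 0 of the 10 were higher, where 8.83% of all genes were, and 3 were lower (Hamp2, Tfrc and Hamp), where 9.82% of all genes were. This count was 2 when it was taken from the authors' means, where Hamp lay at -0.16. It was also 2 when changes were centred on -0.0225, which put Hamp at -0.19. That centre is the median change of the 6235 genes that reached 10 TPM as an average of both libraries, not of all genes. Centring also moved the share of higher genes among all genes past this limit from 47.3% to 57.4%. The median change of the 10 genes was -0.06, with 6 below 0 and 4 above, where 53.8% of all genes were below 0 and 45.8% above. By counting error alone, 5 genes had an interval below 0, 3 above 0 and 2 across 0. Of the 11543 genes with an interval, 13.4% had it below 0 and 11.7% above, and since an interval narrows with the number of reads, these shares are not matched to the 10 genes in depth.

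**Figure D3:**
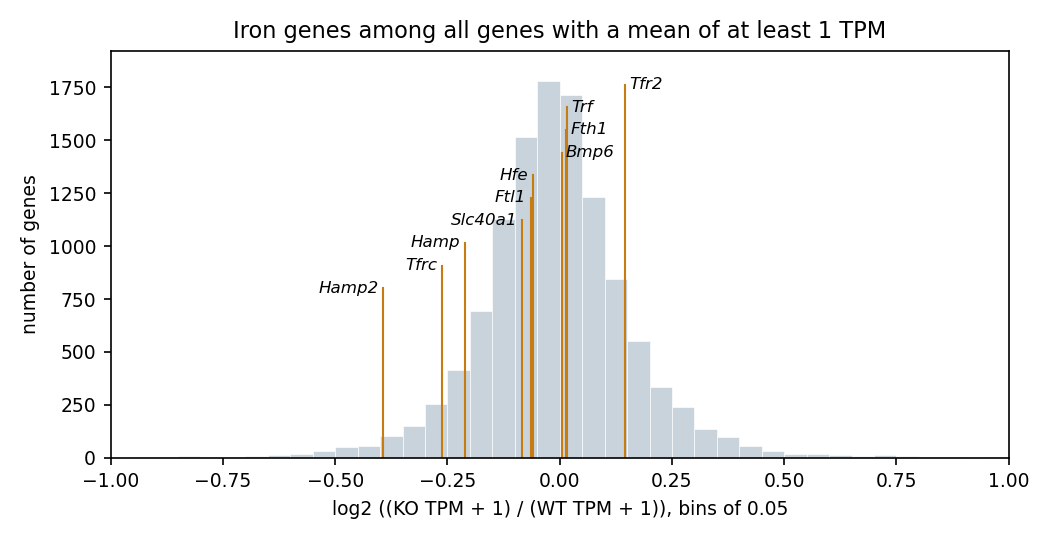
Histogram of the change, as log2(KO/WT) of TPM + 1 in bins of 0.05, over the 11623 genes at or above the minimum level, of which 58 lie outside the axis. Orange lines mark the 10 iron genes at heights chosen for legibility. Hamp2, at -0.39, lies in the lower tail, and 7 of the 10 lie between -0.1 and 0.15.

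The 4 genes with an iron-responsive hairpin had changes from -0.26 for Tfrc to 0.01 for Fth1, with a median of -0.07. The 6 genes without one ran from -0.39 for Hamp2 to 0.14 for Tfr2, with a median of -0.03, so that the ranges of both sets overlap. Tfrc, whose hairpins follow the coding sequence, had the lowest change of the 4, and the 3 genes with a hairpin before it had changes of -0.08 (Slc40a1), -0.06 (Ftl1) and 0.01 (Fth1). The proteins that bind these hairpins showed little difference in transcript level. Aco1, iron regulatory protein 1, was at 102 TPM in both libraries, and Ireb2, iron regulatory protein 2, was at 36.7 TPM in KO against 37.4 in WT. Fbxl5, the ubiquitin ligase subunit that removes Ireb2 protein when iron is plentiful, was at 17.3 TPM in KO against 17.4 in WT. The intervals of all 3 hold 0. Ncoa4, the receptor that delivers ferritin to autophagy, was lowest of its list at -0.19 (97.3 TPM in KO against 111 in WT, interval -0.23 to -0.13). Of the 7 genes of this list, which also holds Pcbp1, Pcbp2 and Epas1, 0 passed either limit in either direction. Among all genes, 1.09% passed the 1.4 and 0.301% the 0.6 limit, and 8.83% were higher and 9.82% lower by 0.2 or more. All 7 genes of the list were below 0, where 53.8% of all genes were, and the median of the list was -0.08. Epas1 had a change of -0.16 (interval -0.21 to -0.10).

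The BMP and SMAD arm, through which iron raises hepcidin, was described with 21 genes, of which 20 reached a mean of 1 TPM. Its median change was 0.03. By 0.2 or more, 3 were higher and 2 lower, where 8.83% and 9.82% of all genes were. The fold limits were passed upward by 1 gene and downward by 0, where 1.09% and 0.301% of all genes passed. The 1 list gene that passed was Fgl1, a protein secreted by hepatocytes that opposes BMP signalling to hepcidin. It stood at 402 TPM in KO against 226 in WT (change 0.83, interval 0.79 to 0.91). Id1 and Id3, which BMP signals induce, were lower in KO. Id1 stood at 9.39 TPM in KO against 12.7 in WT (change -0.40, interval -0.79 to -0.06), the lowest of the list. Id3 stood at 39.5 TPM in KO against 48.9 in WT (change -0.30, interval -0.46 to -0.11). Other BMP targets varied in direction. Id2 was at 130.3 TPM in KO against 104 in WT (0.32), Atoh8 at 14.4 and 11.7 TPM (0.27), Smad6 at 3.77 and 3.59 TPM (0.06), and Smad7 at 6.87 and 6.98 TPM (-0.02). Hemojuvelin, the BMP co-receptor listed as Hfe2, was at 40.2 TPM in KO against 39.2 in WT, and Tmprss6, the protease that cleaves it, at 202 and 187 TPM (0.11). Erythroferrone, listed as Fam132b, was the 1 gene under the minimum.

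Of the 10 genes of the interleukin-6 and STAT3 arm, 9 reached a mean of 1 TPM, with Il6 below it. Their median change was 0.08, which went to -0.0004 over the genes of at least 10 TPM. The 1.4 and the 0.6 limit were passed by 0 of the 9, where 1.09% and 0.301% of all genes passed. By 0.2 or more, 2 were higher and 0 lower, where 8.83% and 9.82% of all genes were. Socs3, a feedback inhibitor that STAT3 induces, was the highest at 6.16 TPM in KO against 4.79 in WT (change 0.31, interval 0.10 to 0.65). Stat3 was at 53.5 TPM in KO against 46.0 in WT (0.21). Il6ra, the receptor chain, was the lowest at -0.15. Beside these, 16 acute phase proteins, which hepatocytes secrete in inflammation, had a median change of 0.28. Of the 16, 5 were past the limit upward, 0 downward and 15 above 0, where 1.09%, 0.301% and 45.8% of all genes were. Saa1 stood at 496 TPM in KO against 54.9 in WT (3.15). Hamp, which interleukin-6 also induces and whose promoter holds the STAT site shown above, was lower in the same library at -0.21, and the part of inflammation in that value was not tested. Whether 1 mouse or all 5 of the pool carried the higher acute phase transcripts cannot be told apart.

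Iron and heme transport was described with 24 genes, of which 21 reached a mean of 1 TPM (Steap1, Cybrd1 and Hephl1 were below it). The median change was 0.05. The fold limits were passed upward by 2 genes and downward by 0, where 1.09% and 0.301% of all genes passed. By 0.2 or more, 7 were higher and 0 lower, where 8.83% and 9.82% of all genes were. Lcn2, a lipocalin that captures iron-loaded bacterial siderophores, was the highest at 11.03 TPM in KO against 4.63 in WT (change 1.10, interval 0.81 to 1.78, on 105 and 58 estimated reads). Flvcr2, listed as Mfsd7c, was at 3.0 TPM in KO against 1.6 in WT (0.62). Slc25a28, mitoferrin 2, which carries iron into mitochondria, followed at 18.0 and 13.6 TPM (0.38). Cd163, the macrophage receptor for hemoglobin bound to haptoglobin, had a change of 0.32, and the endosomal ferrireductase Steap3 one of 0.27. The scavengers haptoglobin (Hp, 2437 TPM in KO against 2031 in WT) and hemopexin (Hpx, 3648 and 3085 TPM) had changes of 0.26 and 0.24. Of these 7 genes, Lcn2, Hp and Hpx are also on the acute phase list. The lowest gene was Slc48a1, a heme transporter, at -0.09. The importer Slc39a14 stood at 81.7 TPM in KO against 81.2 in WT, and Slc11a2 at 14.4 and 13.5 TPM.

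Assembly of iron-sulfur clusters, a main use of iron in mitochondria, differed little. All 19 genes reached a mean of 1 TPM, their median change was 0.01, 0 passed the 1.4 or the 0.6 limit, and 18 of 19 lay within 0.2 of 0. The exception was Nubp1, a scaffold of the cytosolic pathway, at 12.5 TPM in KO against 14.8 in WT (change -0.23, interval -0.43 to -0.03). The highest was the mitochondrial glutaredoxin Glrx5 at 0.15. Past the 1.4 and the 0.6 limit were 1.09% and 0.301% of all genes, so 0 of 19 is near this background. By 0.2 or more, 8.83% of all genes were higher and 9.82% lower.

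**Figure D4:**
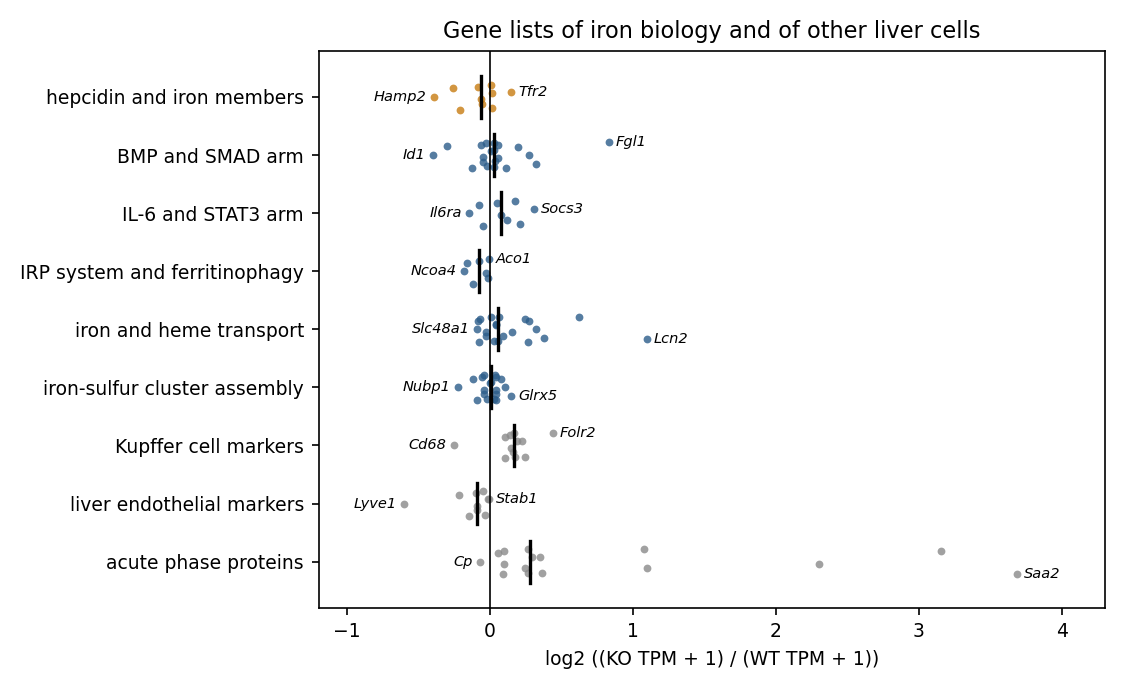
Change of each gene above the minimum level of 1 TPM, as log2(KO/WT) of TPM + 1, for the 10 iron genes (orange), 5 lists of iron biology (blue) and 3 lists of other liver cells or of inflammation (grey). Black bars are medians, and the lowest and the highest gene of each row are named. Medians lie between -0.09 for liver endothelial markers and 0.28 for acute phase proteins.

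Some of these genes are also made by cells other than hepatocytes. Kupffer cells, the liver macrophages, are rich in ferroportin and carry Cd163. Of 12 Kupffer markers, 11 were above 0, where 45.8% of all genes were, and the median of the markers was 0.17. Their summed level was 423 TPM in KO against 373 in WT, against a change of -0.08 for Slc40a1. Of 10 liver endothelial markers, 10 were below 0, where 53.8% of all genes were, and the median of the markers was -0.09. Their summed level was 246 TPM in KO against 266 in WT, against 0.00 for the endothelial ligand Bmp6 and -0.03 for Bmp2. Red cell precursors carry much Tfrc. The 7 red cell markers summed to 1413 TPM in KO against 1429 in WT. The 5 that reached a mean of 1 TPM ran from Hbb-bs, past the limit downward at -0.89, to Hba-a1 at 0.19. Of these 5, 2 were above 0 and 3 below, with a median of -0.14. From the authors' means that median was 0.04, so its direction depends on the table used. The 8 stellate cell markers had a median of -0.18 and the 4 cholangiocyte markers above the minimum one of -0.12. No marker on these lists stood at 0 in either library, and the part of cell makeup in the differences given above was not tested.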

How the data were processed

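Each genotype gave 1 pooled liver library (stranded total RNA kit, paired reads of 100 bases). The submitters' notes name CASAVA 1.8.2, Bowtie and RSEM 1.2.09 with mm10, and the TPM deposited by the authors are posterior means. The KO column sums to 1005325 and the WT column to 994702, so the columns differ in their totals. A second table deposited by the authors holds the EBSeq signal of each library for 16318 genes (expected reads divided by a size factor), named here the authors' mean. The folds and posterior probabilities in that table are the authors' own comparison and were not used.

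The most frequent authors' mean, 1.16 in KO and 0.860 in WT, was taken as 1 read. Within 0.02, 78.4% of KO and 75.0% of WT values were whole reads, so the estimated reads are not exact counts. No count test was run, since each genotype gave 1 library without a replicate. Intervals are Clopper-Pearson (ratios) and exact Poisson (levels) at 95%, use estimated reads, and leave out all but counting error. Genes whose mean reached 1 TPM entered counts and medians, with a pseudocount of 1 TPM. The fold rule and the interval were tried on simulated data that held counting error only, so this does not cover variation between mice or libraries.

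The genes and lists were chosen with earlier results of these data known. Named by rule were the 10 genes, list genes past the fold limits, and the highest and lowest gene of each iron list. Other genes were named after their values were seen. For the list of iron regulatory proteins, 1 gene is not reported here, for a reason unrelated to its value. Promoters are from RefSeq on GRCm38.p6, hairpins and shared stretches from GENCODE M21. Scripts ran under Python 3.11.15 (scipy 1.17.1, pandas 2.3.3, numpy 2.4.6, with figures from matplotlib 3.10.9).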

Additional observations from a re-analysis of the deposited data

How the results depend on the processing

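No paired analysis was possible because the libraries are pools, 1 for each genotype. With a pseudocount of 0.1 TPM, 266 of all genes were up and 70 down, against 127 and 35 with 1 TPM, and with the authors' means 294 and 80. With a minimum of 10 TPM, 48 were up and 17 down, and 308 were higher and 510 lower by 0.2 or more, against 1026 and 1141, as fewer genes entered. With the mirror of 1.4 as the limit for falls, 118 were down, and with limits of 2 and 0.5, 31 were up and 13 down. Under each of these settings 0 of the 10 iron genes passed the fold rule. The change of Trf was 0.0290 from the authors' means and 0.0377 after centring, and that of Ftl1 -0.0432 and -0.0425, against 0.0152 and -0.0650 from TPM. Each of these moves is larger than the counting error of so many reads; that of centring is the same shift for every gene, and the cause of the other was not tested. None of the 10 changed sign under the alternatives run on it. Summing Hamp and Hamp2 gave -0.24. Summing the ferritin genes with their copies was not run, since no copy had a value used here. The median of the interleukin-6 and STAT3 genes was -0.0004 with the minimum of 10 TPM, against 0.08. Depth limits Bmp6 most, on 81 and 108 estimated reads. The interval of Hfe, on 773 and 1078 estimated reads, also holds 0. Pooling limits all 10 genes.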
